A study of Homo sapiens with 36 samples.

Results

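The miRNAs bound by the D619N variant of AGO2 were compared with those bound by wild-type AGO2 (WT-AGO2). Flag/HA-tagged AGO2 was expressed by transient transfection in HEK293T cells, a human embryonic kidney line that keeps its own AGO2, and was immunoprecipitated with an anti-HA antibody (IP) before small RNA sequencing. The comparison rested on 6 of the 36 libraries of the series, 3 replicates of the D619N IP and 3 of the WT-AGO2 IP, and on all 135 mature miRNAs of the deposited table. The other libraries were IPs of the variants F182del, N359H and G604R and of a Flag/HA-empty vector, and the cleared lysate (input) of each of these 6 conditions. D619N replaces an aspartate by an asparagine in the PIWI domain and is a variant of AGO2 studied for Lessel-Kreienkamp syndrome, a neurodevelopmental disorder. Nothing in the table measures how much tagged protein each culture made, and the labels do not say whether replicates were separate cultures, so that p-values measure the spread between these libraries.

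AGO2 is the Argonaute protein that holds a miRNA and uses it to find target mRNAs. A miRNA precursor yields a duplex, of which AGO2 keeps the guide strand and releases the passenger strand, marked here by an asterisk. The seed, bases 2 to 8 counted from the 5′ end, sets most target choice. The 4 RefSeq sequences of the Mir-92 family share their seed, as do the 2 of the Mir-221 family. Whether the names of any other family share a seed was not tested. Names follow MirGeneDB, where Mir-92-P1d_3p is the strand from the 3′ arm of paralogue P1d of the Mir-92 family.

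The sequences below belong to miRNAs described further on, with the seed in capitals, from RefSeq (GRCh38.p14). The table names were tied to 1 RefSeq gene by their number for a chosen 16 of the 135 miRNAs, with Mir-378_3p tied to MIR378A. The first is the called guide that fell most among those with reads left in D619N IP, and the next 4 are both strands of Mir-423, of which the 5p strand was called, and 2 guides that had few reads in D619N IP without passing the test. Mir-130-P3b_5p* and Mir-10-P1c-v1_3p*, with larger differences, carry paralogue names and could not be tied to a sequence.
hsa-miR-577: uAGAUAAAauauugguaccug
hsa-miR-423-5p: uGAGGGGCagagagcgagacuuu
hsa-miR-423-3p: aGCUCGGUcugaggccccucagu
hsa-miR-769-5p: uGAGACCUcuggguucugagcu
hsa-miR-345-5p: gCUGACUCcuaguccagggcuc
MIR577 lies at chr4:114656774-114656794 on the plus strand, in an intron of UGT8 in GENCODE v29. MIR423 lies on chr17, with the 5p strand at chr17:30117095-30117117 and the 3p strand at chr17:30117131-30117153, on the plus strand in an intron of NSRP1, and MIR3184 overlaps it on the other strand. MIR769 lies at chr19:46018961-46018982 on the plus strand in an intron of CCDC61, and MIR345 at chr14:100307876-100307897 on the plus strand, in no other annotated gene.

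The members of the Mir-92 and Mir-221 families are shown because paralogues with the same seed moved apart (Mir-92) or lost reads (Mir-221). Which RefSeq gene is which paralogue is not given by the table, so these names are not paired with values.
hsa-miR-92a-3p: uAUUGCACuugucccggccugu
hsa-miR-92b-3p: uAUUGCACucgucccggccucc
hsa-miR-25-3p: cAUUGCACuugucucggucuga
hsa-miR-363-3p: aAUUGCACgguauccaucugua
hsa-miR-221-3p: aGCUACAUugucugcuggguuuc
hsa-miR-222-3p: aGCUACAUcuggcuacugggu
The 4 sequences of the Mir-92 family share the seed AUUGCAC and differ after it: of the 14 positions that follow, 11 are the same between miR-92a and miR-25 and 9 between miR-92b and miR-25, while miR-363 shares 3 with miR-92a, 3 with miR-92b and 2 with miR-25. miR-92a-3p is encoded at 2 loci, chr13:91351361-91351382 (MIR17HG, exon) and chrX:134169544-134169565. The pair from the Mir-221 family shares the seed GCUACAU, and both genes lie in an intron of the lincRNA MIR222HG on chrX.

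Depth set what could be seen. All listed values came in steps of a fixed RPM per library, taken as 1 read (tolerance 0.001), which gave 102967 to 279899 reads per WT-AGO2 IP library and 16636 to 73255 per D619N IP library. Mature miRNA reads numbered 30793, 6429 and 6105 in WT-AGO2 IP replicates 1 to 3, and 6895, 2655 and 2011 in D619N IP. Values of 1 read were rare: the 6 libraries held 16 of them, all in miRNAs with a listed paralogue of the same arm, against 78 values of 2 reads, so a miRNA listed at 0 may have had single reads. The 135 miRNAs were therefore sorted by the reads their mean share would give in the shallowest library, into 22 abundant (10 or more), 32 intermediate (3 or more) and 81 near the read limit. HEK293T identity was checked on the same libraries: 4 guide names of Mir-92 held 25.98% to 44.0% of mature reads and 4 of Mir-10 held 22.4% to 31.3%, Mir-17 and Mir-19 were lower (0.199% to 1.01% and 0.0290% to 0.0983%), and no name of Mir-122, Mir-1, Mir-133, Mir-208, Mir-124, Mir-142, Mir-223, Mir-451 or Mir-205, which mark liver, muscle, neurons, blood and epithelium, was listed. Names listed with nearly the same reads, such as Mir-92-P1a_3p and Mir-92-P1c_3p, both enter these sums. Whether shared reads were divided among such names or counted for each is not given.

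After scaling by the median of ratios over 58 miRNAs with reads in each of the 6 libraries, 18 of the 123 miRNAs tested passed an adjusted p of 0.05 and a fold of 2 (14.6%). Of these, 14 were lower in D619N IP (11.4%) and 4 higher (3.25%), and 10 of the 14 were listed at 0 in all 3 D619N libraries. The abundance classes differed in what was called. Of 22 abundant miRNAs 2 rose and 2 fell, of 32 intermediate miRNAs 2 rose and 3 fell, and of 69 tested near the read limit 9 were lower, all at 0 in D619N IP, and none higher (0 by limma, while 20 in either direction had an unadjusted p under 0.05). The median log2 fold change was 0.18 for abundant, -1.24 for intermediate and -1.55 for miRNAs near the read limit, with -1.18 over all 123. Near the read limit, 28, 51 and 52 miRNAs were at 0 in D619N IP replicates 1 to 3, and 7, 24 and 17 in WT-AGO2 IP. With a pseudocount below 1 read, a 0 against listed reads enters the fit as a large fall. The medians near the limit and over all 123 thus depend on depth and do not give the size of a typical change. In 47 of the 123 (38.2%) the 3 D619N shares lay wholly above or below the 3 WT-AGO2 shares, and this held for 11 of 22 abundant miRNAs, 7 above and 4 below. On the RPM as deposited, relative to all reads of the library, no miRNA passed (0 of 123 by limma, 25 with an unadjusted p under 0.05) and the median moved to -0.60. The share of mature miRNA reads varied more than 3-fold between replicates on that scale, and changes below are relative to the other mature miRNAs.

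**Figure D1:**
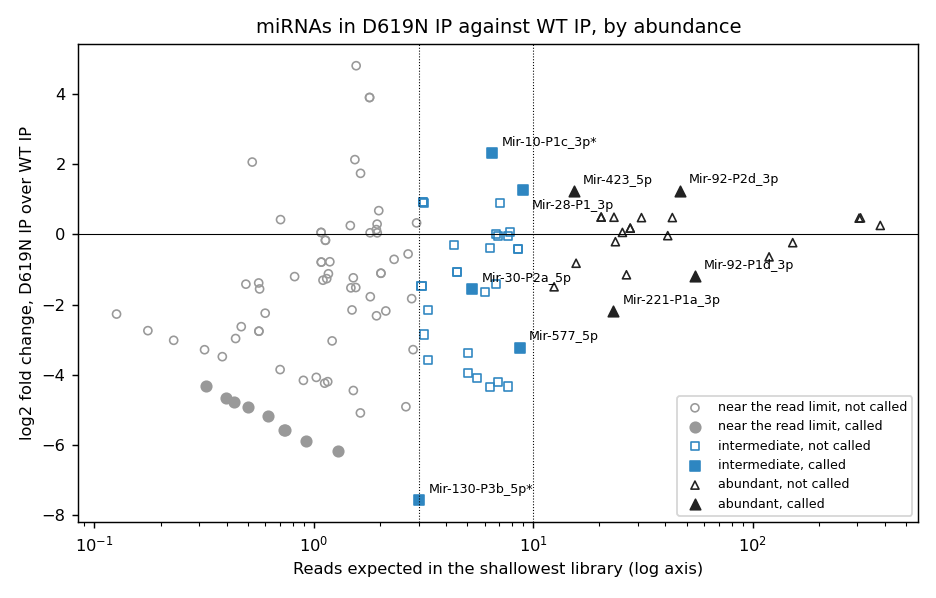
Log2 fold change of D619N IP over WT-AGO2 IP for the 123 tested miRNAs against the reads expected in the shallowest library (log axis), with dotted lines at 3 and 10 reads, symbols for the abundance classes and filled symbols for calls. The 9 filled circles near the read limit all lie below 0, while the 9 called miRNAs above it lie on both sides.

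Among miRNAs above the read limit, Mir-577_5p and Mir-221-P1a_3p gave the clearest falls with reads in every library. Mir-577_5p took 0.481%, 0.762% and 1.11% of mature reads in WT-AGO2 IP and 0.0580%, 0.0753% and 0.0995% in D619N IP. The groups were far apart, with 4, 2 and 2 reads in D619N IP where the WT-AGO2 mean share would have given 54.2, 20.9 and 15.8. The mean share was 10.1-fold lower, and the log2 fold change was -3.22 ± 0.38 (SE, adjusted p = 0.00448). Mir-221-P1a_3p, of a family known for action on cell cycle inhibitors, took 1.35%, 2.32% and 2.05% in WT-AGO2 IP and 0.363%, 0.490% and 0.348% in D619N IP. Its mean fell 4.76-fold, from 1.91% ± 0.499 to 0.400% ± 0.0779 (SD, n = 3), and all 3 D619N libraries were under the lowest WT-AGO2 library (log2 fold change -2.18 ± 0.28, adjusted p = 0.00448). Its passenger strand Mir-221-P1a_5p* had 180, 25 and 64 reads in WT-AGO2 IP and 12, 0 and 2 in D619N IP, which did not pass the test (log2 fold change -4.33 ± 1.79, adjusted p = 0.127). Both strands of this hairpin were thus low in D619N IP, 1 of them beyond the threshold.

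Mir-92-P1d_3p, the sixth most abundant miRNA, fell from 4.46%, 3.59% and 3.21% to 1.22%, 1.36% and 2.44%. The groups did not overlap, though D619N replicate 3 came close to the lowest WT-AGO2 library (log2 fold change -1.18 ± 0.25, adjusted p = 0.0208). This call was lost under 6 of 16 alternatives, among them leaving out WT-AGO2 replicate 1, D619N replicate 1 or D619N replicate 2, and with the replicate number as a block. Mir-30-P2a_5p fell from 0.279%, 0.482% and 0.426% to 0.0870%, 0.151% and 0.149% (log2 fold change -1.57 ± 0.35, adjusted p = 0.0279). It had 6, 4 and 3 reads in D619N IP, and the call was lost without WT-AGO2 replicate 2, WT-AGO2 replicate 3 or D619N replicate 1. Mir-130-P3b_5p*, a passenger strand, had 66, 21 and 22 reads in WT-AGO2 IP but 0 in each D619N library, where 20.7, 7.98 and 6.04 reads would have been expected. Against a floor of 3 reads per library its share was at least 2.95-fold lower. It was called, but with no spread within D619N IP, and its fitted fold depends on the pseudocount.

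**Figure D2:**
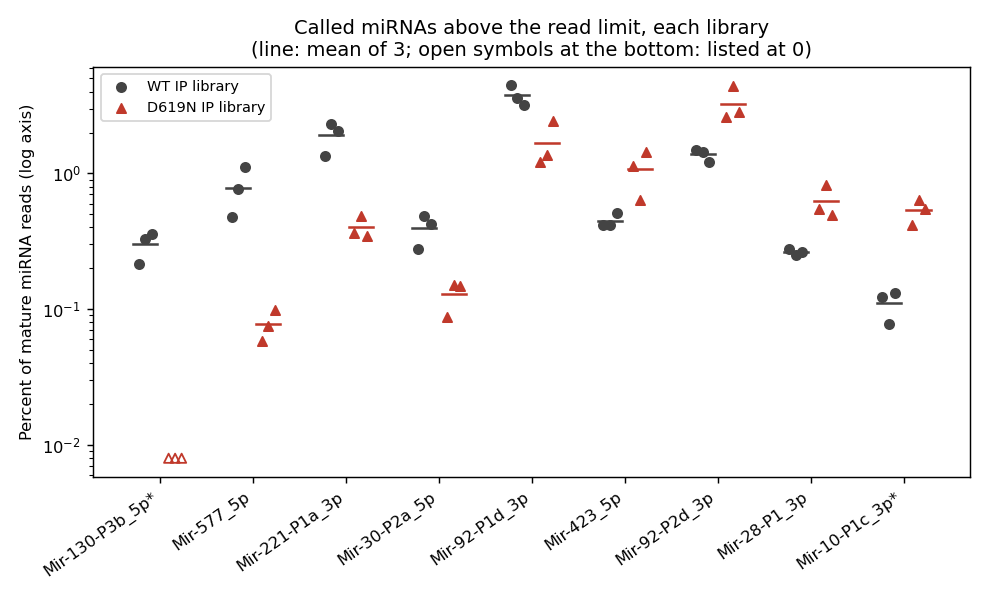
Percent of mature miRNA reads (log axis) in each WT-AGO2 IP library (circles) and D619N IP library (triangles) for the 9 called miRNAs above the read limit, ordered by fold change, with the mean of 3 as a line and open symbols at the bottom for libraries listed at 0. In none of the 9 do the groups overlap, as held for 47 of the 123 tested miRNAs (38.2%). The 9 were chosen by their calls on these same libraries, so this is no separate evidence.

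The 4 miRNAs that rose were all above the read limit. Mir-10-P1c-v1_3p* rose most: this passenger strand took 0.123%, 0.0778% and 0.131% in WT-AGO2 IP and 0.421%, 0.640% and 0.547% in D619N IP. It had 29, 17 and 11 reads in D619N IP against 7.64, 2.94 and 2.23 expected at the WT-AGO2 share, a 4.84-fold rise in mean share (log2 fold change 2.32 ± 0.33, adjusted p = 0.00448). In the fit with all 5 AGO2 groups it no longer passed. Its guide strand Mir-10-P1c-v1_5p, the most abundant miRNA, took 16.7%, 18.5% and 17.3% and then 24.0%, 19.7% and 17.6%, overlapping between the groups (log2 fold change 0.26 ± 0.23, adjusted p = 0.466).

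Mir-92-P2d_3p took 1.49%, 1.45% and 1.21% in WT-AGO2 IP and 2.58%, 4.37% and 2.83% in D619N IP. Its mean rose 2.36-fold, every D619N library lay above every WT-AGO2 library (log2 fold change 1.25 ± 0.24, adjusted p = 0.0141), and the call was lost without WT-AGO2 replicate 1. Mir-28-P1_3p rose from 0.279%, 0.249% and 0.262% to 0.551%, 0.829% and 0.497% (log2 fold change 1.25 ± 0.29, adjusted p = 0.0279). Its groups stood apart, but the call was lost under 6 of 16 alternatives, among them leaving out WT-AGO2 replicate 1, WT-AGO2 replicate 2, D619N replicate 1 or D619N replicate 2. Mir-423_5p rose from 0.416%, 0.420% and 0.508% to 1.13%, 0.640% and 1.44% (log2 fold change 1.23 ± 0.32, adjusted p = 0.0489). It was the weakest call, lost under 10 of 16 alternatives, including scaling to mature miRNA reads and leaving out WT-AGO2 replicate 1, WT-AGO2 replicate 2, D619N replicate 1 or D619N replicate 3.

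Ratios within a library do not depend on scaling or on the share of miRNA in the library, and 2 of them set D619N IP apart. For each read of Mir-92-P1d_3p there were 0.334, 0.403 and 0.378 reads of its paralogue Mir-92-P2d_3p in WT-AGO2 IP, and 2.12, 3.22 and 1.16 in D619N IP. The order of these paralogues with a common seed was thus turned in D619N IP, and in the 9 IP libraries of F182del, N359H and G604R the ratio stayed between 0.153 and 0.490. In the empty vector IP no read of Mir-92-P2d_3p was listed. The third Mir-92 guide, Mir-92-P1a_3p, gave 3.57, 3.57 and 3.38 reads per read of Mir-92-P1d_3p in WT-AGO2 IP and 14.0, 11.9 and 8.04 in D619N IP. In the empty vector IP, with few reads, this ratio was 10.75, 4.44 and 23.5, a range that covers the D619N values, and Mir-92-P1a_3p took a mean of 23.2% of mature reads there. The part of such background in this ratio was not tested. Its share rose less than that ratio, from 15.9%, 12.8% and 10.9% to 17.1%, 16.1% and 19.6%, and did not pass the test (log2 fold change 0.47 ± 0.19, adjusted p = 0.127). Mir-92-P1c_3p was listed with 97.5% to 99.1% of the reads of Mir-92-P1a_3p in these 6 libraries and cannot be taken as a separate measurement.

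The passenger strand of Mir-10-P1c made up 0.735%, 0.418% and 0.753% of both strands in WT-AGO2 IP and 1.73%, 3.15% and 3.02% in D619N IP. In the 9 libraries of the other variants it lay between 0% and 1.10%, below all D619N libraries. These ratios were picked after their values were seen and carry no test. For Mir-423 the 3p strand gave 0.805, 0.667 and 1 reads per 5p read in WT-AGO2 IP and 0.0769, 0 and 0.207 in D619N IP, so that the 5p strand rose while Mir-423_3p had 103, 18 and 31 reads in WT-AGO2 IP and 6, 0 and 6 in D619N IP (log2 fold change -3.37 ± 1.86, adjusted p = 0.245). For Mir-28-P2 the 5p strand gave 0.733, 0.878 and 0.692 reads per 3p read and then 0.325, 0.143 and 0.640. In both hairpins every D619N ratio was under every WT-AGO2 ratio, but the strand ratio did not pass its own test.

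**Figure D3:**
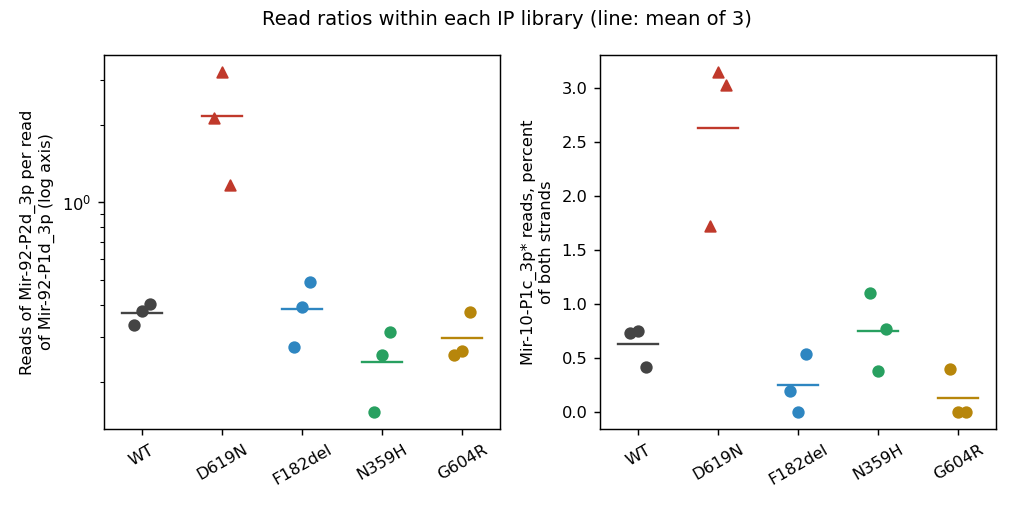
Reads of Mir-92-P2d_3p per read of Mir-92-P1d_3p (left, log axis) and Mir-10-P1c_3p* as percent of the reads of both strands (right, linear axis) in each IP library of the 5 AGO2 groups, with the mean of 3 as a line. The 3 D619N libraries (triangles) lie above the 12 other libraries in both panels.

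None of the rest of the 10 most abundant miRNAs passed the test. Mir-10-P1b-v1_5p (8.19% ± 1.38 in WT-AGO2 IP and 6.93% ± 2.18 in D619N IP), Mir-378_3p (2.104% ± 0.591 and 1.97% ± 0.380) and Mir-28-P2_3p (1.29% ± 0.149 and 1.80% ± 0.565; SD, n = 3) overlapped between the groups, with log2 fold changes of -0.23 ± 0.32, -0.03 ± 0.28 and 0.48 ± 0.30. Mir-22-P1b_3p lay higher in each D619N library (2.70%, 1.996% and 2.69% after 1.97%, 1.49% and 1.98%) but did not pass (adjusted p = 0.149). Mir-186_5p varied most among WT-AGO2 libraries, at 4.52%, 6.77% and 11.0%, against 3.42%, 5.01% and 4.72% in D619N IP (log2 fold change -0.64 ± 0.32, adjusted p = 0.194). The SEs of these abundant guides ran from 0.19 to 0.32 on the log2 scale. Changes under the fold of 2 were left out by the threshold, and larger ones could also go undetected with 3 libraries a group. Mir-30-P1a_5p, also abundant, did not pass at a log2 fold change of -1.49.

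Reads moved towards the abundant class as a whole. The 22 abundant miRNAs took 84.1%, 84.1% and 82.7% of mature reads in WT-AGO2 IP and 89.9%, 89.9% and 89.6% in D619N IP. The 32 intermediate miRNAs took 10.5% to 12.1% and then 6.24% to 6.96%, and the 81 near the read limit 4.65% to 5.40% and then 3.35% to 3.83%, with no overlap in any class. The classes were set on these 6 libraries, so this is given without a test. Depth moved with the group, since 2 of the 3 D619N libraries had fewer mature reads than any WT-AGO2 library, and its part in the result was not tested. The G604R libraries, with 2677, 1820 and 3712 mature reads, had 82.3%, 83.1% and 80.2% in the same 22 miRNAs. N359H replicate 3, the shallowest at 1150 mature reads, had 87.9%. The empty vector IP, with 174 to 202 mature reads a library, had 91.6% to 94.3%, and the part of such background in the D619N value was not tested.

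**Figure D4:**
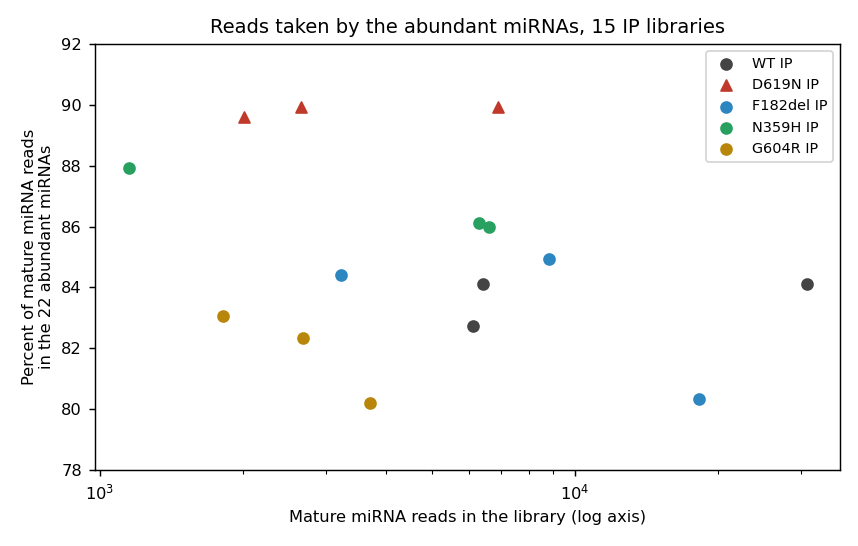
Percent of mature miRNA reads in the 22 abundant miRNAs (axis from 78 to 92) against the mature miRNA reads of the library (log axis) for the 15 IP libraries of the 5 AGO2 groups. The 3 D619N libraries (triangles) lie at 89.6% to 89.9%, above the other 12, which reach 87.9%.

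The 9 calls near the read limit were all of miRNAs listed at 0 in the 3 D619N libraries, so that they passed the filter through WT-AGO2 IP alone and had no spread within D619N IP. They are given as reads, not as changes in level. Mir-1307_5p had 43, 3 and 12 reads in WT-AGO2 IP, Mir-188-P3_5p 36, 6 and 4, Mir-197_3p 29, 5 and 3, and Mir-30-P1d_3p* 28, 4 and 4. Expected reads over all 3 D619N libraries at the WT-AGO2 share were 14.8, 10.6, 8.52 and 8.43. The calls of Mir-1307_5p, Mir-197_3p and Mir-30-P1d_3p* were lost with all 5 AGO2 groups in the fit. Mir-1910_5p*, Mir-362-P2-v1_3p, Mir-652_3p, Mir-17-P4d_3p* and Mir-340_3p* had 7.07 expected reads or fewer. Together with Mir-130-P3b_5p*, these 10 miRNAs had 0 of 11561 mature reads in D619N IP where 103 were expected, and 81 of 8209 in G604R IP, 91 of 14044 in N359H IP, 266 of 30343 in F182del IP and 388 of 43327 in WT-AGO2 IP. They were chosen for being at 0 in D619N IP, so that the 0 was set in advance and is no separate evidence. Mir-130-P3b_5p* alone held 34.7 of the 103 expected reads. In all, 22 miRNAs with WT-AGO2 reads were at 0 in the 3 D619N libraries, and 12 of them had 3 or more expected reads.

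Of other miRNAs that the study names in its text or plots, several were low in D619N IP but at 0 in 1 or 2 libraries, which widened their error. The study reported Mir-345_5p, Mir-589_5p and Mir-769_5p as significantly less bound by D619N, using DESeq, and they did not pass the main fit here. Mir-769_5p had 248, 33 and 23 reads in WT-AGO2 IP and 9, 2 and 0 in D619N IP (8.24-fold lower mean share, adjusted p = 0.123). Mir-345_5p had 129, 32 and 22 reads and then 5, 4 and 0 (5.72-fold lower, adjusted p = 0.135), and Mir-589_5p 29, 17 and 3 and then 3, 0 and 0 (adjusted p = 0.123). None of the 3 overlapped between the groups, as held for 38.2% of all tested miRNAs, and for Mir-589_5p this rested on 3 reads in each of 2 libraries. In the other direction, Mir-181-P1a_5p had 13, 0 and 1 reads in WT-AGO2 IP and 13, 5 and 2 in D619N IP, where 1.35, 0.519 and 0.393 were expected (log2 fold change 3.902 ± 1.445, adjusted p = 0.123). Mir-181-P1b_5p holds the same values and is not separate. Mir-375_3p, which the study names for F182del, G604R and N359H and not for D619N, had 41, 0 and 3 reads and then 7, 2 and 2 (adjusted p = 0.426). Mir-769_5p and Mir-345_5p passed under 4 of 16 alternatives, Mir-181-P1a_5p under 2 of 15, Mir-589_5p under 1 of 15 and Mir-375_3p under none of 15.

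When guide strands were summed by family, 6 of 51 families passed (11.8%), all lower, and 4 of them, Mir-197, Mir-652, Mir-362 and Mir-1307, were the single miRNAs near the read limit listed at 0 in D619N IP. Mir-221 fell from 1.56%, 2.63% and 2.21% of mature reads to 0.479%, 0.490% and 0.497% (log2 fold change -2.05 ± 0.23, adjusted p = 0.00171). The D619N shares lay close together but rested on few reads, with 25, 13 and 7 in Mir-221-P1a_3p. The sixth, Mir-577, has 1 guide, given above. The Mir-92 sum took 31.4% ± 5.897 and then 39.8% ± 3.58 (SD, n = 3) and did not pass (log2 fold change 0.40 ± 0.22, adjusted p = 0.230), and it sums paralogues that changed in opposite directions. The Mir-10 sum was 26.2% ± 2.17 and 27.5% ± 4.55 (log2 fold change 0.11 ± 0.25), and the Let-7 sum 1.63% ± 0.393 and 1.42% ± 0.114 (log2 fold change -0.13 ± 0.23), with the groups overlapping in both.

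By single names, none of 10 Let-7, 5 Mir-15, 3 Mir-320 and 2 tested Mir-19 names passed (0 by limma), and none of them had an unadjusted p under 0.05. None of 3 Mir-26, 3 Mir-103, 3 Mir-148 and 6 tested Mir-181 names passed either (0 by limma), with an unadjusted p under 0.05 for 3, 3, 1 and 2 of them. The counts that follow stand beside 11.4% lower and 3.25% higher over all 123, and with so few names each they single out no family. Of 9 Mir-30 names 2 were lower, Mir-30-P2a_5p and Mir-30-P1d_3p* (at 0 in D619N IP), and their median log2 fold change was -1.42 against -1.18 over all 123. Of 7 tested Mir-17 names 1 was lower (Mir-17-P4d_3p*, at 0 in D619N IP), with a median of -2.18, and all but 1 of 8 names lay near the read limit. These medians depend on libraries at 0, as those of the classes do. Of 4 Mir-28 names 1 rose, and of 4 Mir-130 and 2 Mir-188 names 1 each was lower, both at 0 in D619N IP. Of 6 Mir-92 names 1 rose and 1 fell, and of 5 Mir-10 names 1 rose, the passenger strand described above. Names of 1 family share reads, so these counts are not of separate measurements.

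Passenger strands took 2.60%, 2.26% and 2.98% of mature reads in WT-AGO2 IP and 2.23%, 1.17% and 1.64% in D619N IP. All D619N libraries were lower, with a ratio of means of 0.644, and the exact permutation test (two-sided) gave p = 0.1, the smallest possible with 3 against 3. Of 20 tested passenger strands 1 was higher and 5 lower, all 5 at 0 in D619N IP, and of 103 tested guide strands 3 were higher and 9 lower, beside 3.25% and 11.4% over all 123. Among 21 hairpins with both strands measurable, the ratio of passenger to guide passed for 1 (4.76%), Mir-30-P1d. Its 3p* strand was at 0 in D619N IP while its guide Mir-30-P1d_5p had 19, 12 and 7 reads (0.401% ± 0.183 in WT-AGO2 IP and 0.359% ± 0.0887 in D619N IP; log2 fold change -0.04 ± 0.40), and the ratio had an adjusted p of 0.0104 that was lost with a pseudocount of 100 CPM or with the replicate number as a block. The ratio of Mir-10-P1c did not pass (log2 ratio difference 2.08 ± 1.31, adjusted p = 0.385).

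Mature miRNAs took 11.0%, 6.24% and 2.23% of all reads in WT-AGO2 IP (95% Wilson intervals 10.9% to 11.1%, 6.10% to 6.39% and 2.17% to 2.29%) and 12.05%, 3.62% and 12.1% in D619N IP (11.8% to 12.3%, 3.49% to 3.76% and 11.6% to 12.6%). Intervals and floors cover counting error only. The replicates of each group differed far more than these intervals, the groups overlapped, and the means of 6.49% ± 4.39 and 9.25% ± 4.88 (SD, n = 3) gave p = 0.5 in the exact permutation test, two-sided, with 0.1 the smallest possible. In the empty vector IP the share was 0.362% to 1.02%. Relative to the input of the same replicate, the ratio of means was 0.872 in place of 1.43 (exact permutation p = 1). The IP over input ratios were 19.3, 26.4 and 9.65 for WT-AGO2 and 2.52, 11.9 and 33.8 for D619N. D619N input replicate 1, with 17118 reads in all, had a mature share of 4.77%, against 0.304% and 0.358% in replicates 2 and 3. That high input share lowered the first D619N ratio. How much of a share reflects tagged AGO2 recovered and how much the number of transfected cells cannot be told apart in such pools of cells.

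In the input no miRNA passed between D619N and WT-AGO2 (0 of 105 by limma, 0%; 4 had an unadjusted p under 0.05). The D619N input libraries held 817, 1939 and 3272 mature reads, and errors were wide for miRNAs with few reads (Mir-577_5p, log2 fold change -1.05 ± 1.12). Equal levels in the lysates were thus not shown. Mir-221-P1a_3p took 0.639%, 1.20% and 1.46% of mature reads in WT-AGO2 input and 0.612%, 1.24% and 1.41% in D619N input (log2 fold change -0.19 ± 0.44, adjusted p = 0.994), so that the groups overlapped where it had fallen in IP. Mir-92-P2d_3p and Mir-92-P1d_3p had log2 fold changes of 0.14 ± 0.28 and -0.19 ± 0.29 in the input. Mir-577_5p took 0.149%, 0.227% and 0.364% in WT-AGO2 input and 0%, 0.206% and 0.428% in D619N input, the first of these on 817 mature reads. The difference between IP and input was itself tested over 12 libraries, and 5 of 127 miRNAs passed (3.94%). With IP and input of the same variant and replicate number, which come from the same lysate, taken as a block, 1 of 127 passed. The interaction values below come from the fit without this block, which took IP and input as independent. Of the 5, Mir-130-P3b_5p*, Mir-1910_5p* and Mir-340_3p* were at 0 in all 6 input libraries, so their interaction restates the difference in IP. Mir-221-P1a_3p (-2.02, adjusted p = 0.0880), Mir-92-P2d_3p (1.07, adjusted p = 0.231), Mir-92-P1d_3p (-1.02, adjusted p = 0.263) and Mir-577_5p (-1.56, adjusted p = 0.693) did not pass, so a difference between fractions was not shown for them.

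Set against the mean of F182del, N359H and G604R in IP, D619N IP differed in 29 of 133 miRNAs (21.8%), 8 higher and 21 lower. This contrast leaves out the WT-AGO2 levels but rests on the same D619N libraries. Mir-221-P1a_3p took 1.18% to 3.38% in the 9 libraries of the other variants, all above the 0.490% that D619N IP reached (log2 difference -2.44 ± 0.25, adjusted p = 5.84e-06). Mir-577_5p took 0.363% to 0.997% there (-2.72 ± 0.29, adjusted p = 6.51e-06) and Mir-130-P3b_5p* 0.197% to 0.566%, against 0 in D619N IP. Mir-92-P2d_3p was higher in D619N IP (1.69 ± 0.24, adjusted p = 0.000134), Mir-92-P1d_3p lower (-1.07 ± 0.25, adjusted p = 0.00626) and Mir-10-P1c-v1_3p* higher (4.44 ± 1.21, adjusted p = 0.0153). For Mir-92-P1d_3p the libraries overlapped, with 1.98% in F182del IP replicate 3 and 2.44% in D619N IP replicate 3. Mir-769_5p and Mir-345_5p, which had not passed against WT-AGO2, passed here (-3.99 ± 0.89, adjusted p = 0.00517, and -2.92 ± 0.90, adjusted p = 0.0296). Mir-423_5p did not (0.81, adjusted p = 0.125): against the same WT-AGO2 libraries it had a log2 fold change of 1.76 (adjusted p = 0.0144) in F182del IP, so a higher level was not particular to D619N. Mir-28-P1_3p did not pass either (adjusted p = 0.212), and Mir-30-P2a_5p passed the p but not the fold (-0.99).

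**Figure D5:**
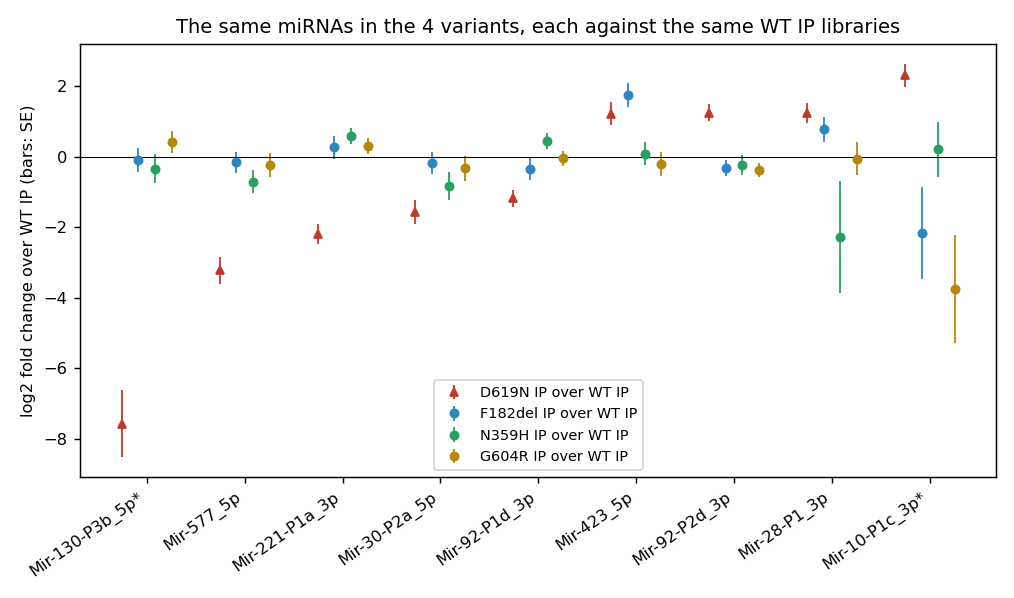
Log2 fold change over WT-AGO2 IP with its SE for the 9 called miRNAs above the read limit in D619N (triangles) and in F182del, N359H and G604R IP (circles), all against the same 3 WT-AGO2 libraries. D619N lies apart from the other variants for Mir-130-P3b_5p*, Mir-577_5p, Mir-221-P1a_3p, Mir-92-P1d_3p and Mir-92-P2d_3p, whereas F182del lies as high for Mir-423_5p. Single libraries of Mir-92-P1d_3p overlapped between D619N and F182del.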

How the data were processed

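Small RNA from anti-HA IP and input of HEK293T cells was sequenced in 36 libraries. The authors trimmed and annotated reads with sRNAbench against MirGeneDB 2.1 (GRCh38 in the submitters' processing notes) and deposited RPM, that is reads scaled to the total reads of a library, for 135 mature miRNAs; how reads shared by paralogues were assigned is not given in the sources used here. Mature miRNA reads ranged from 2011 to 30793 in the 6 libraries compared. Reads were inferred from the RPM of 1 read and used for depth, 95% Wilson intervals and a floor of 3 reads only.

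RPM were scaled by median of ratios, kept at 1 or more in 2 of 3 libraries of a group, and tested as log2(RPM + 1) by linear models with a trended eBayes prior (R 4.3.3, limma 3.58.1), with Benjamini-Hochberg adjustment, at an adjusted p of 0.05 and a log2 fold change of 1. The pseudocount of 1 RPM lies below the RPM of 1 read in these libraries, so where libraries are at 0 the fitted fold exceeds the ratio of mean shares (Mir-345_5p, -3.95 on the log2 scale against a 5.72-fold lower share). Strand ratios used log2((passenger + 1)/(guide + 1)) on CPM of mature reads, without the fold threshold. Shares were compared by exact permutation tests. Percent of mature reads describes levels. The fit with other variants held 15 libraries and the interaction 12. The test was tried on simulated data with known changes, all larger than those of the abundant miRNAs called here. It recovered the planted changes of abundant miRNAs, but changes near a fold of 2 were not tried. It also called unchanged miRNAs near the read limit, and whether these were at 0 was not recorded. The simulated reads did not copy the rarity of values of 1 read. Calls near the limit, all at 0 in D619N IP, are therefore given as reads and not as changes in level.

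The miRNAs described are those called above the read limit, the 4 highest in WT-AGO2 IP of those called near it, the 10 most abundant, those the study names for D619N or for reduced association in its text or volcano plot, and the other strand of called miRNAs. The interaction calls, the further calls near the limit and the ratios were added after their values were seen. Members and lists were chosen with earlier results of these data known. Alternatives were pseudocounts, scalings, no filter, identical names counted once, each library left out, other samples in the fit and the replicate number as a block. Same-numbered D619N and WT-AGO2 libraries are not stated to share a day or batch, and their deviations from the group means correlated at 0.144, -0.0733 and -0.127 in IP, so the numbers were not taken as pairs.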

Additional observations from a re-analysis of the deposited data

Results flagged for a closer look

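The 5 miRNAs below passed the interaction term of a limma fit over 12 libraries, which compares the difference between D619N and WT-AGO2 in IP with that in input. Mir-130-P3b_5p* had an interaction of -5.86 on the log2 scale, with 66, 21 and 22 reads in WT-AGO2 IP, 0 in D619N IP and 0 in all 6 inputs. Mir-1910_5p* (-3.54) had 32, 3 and 2 reads in WT-AGO2 IP and Mir-340_3p* (-2.75) had 5, 3 and 2, and both were at 0 in the other 9 libraries. For these 3, with no input reads, the term restates the difference in IP. Mir-26-P2_5p (-4.99) had 33, 13 and 9 reads in WT-AGO2 IP and 2, 0 and 0 in D619N IP, against 27, 10 and 6 in WT-AGO2 input and 4, 13 and 15 in D619N input. Mir-17-P1c_5p (2.70) rested on 2 reads in WT-AGO2 IP and on 3, 2 and 2 in WT-AGO2 input, with none listed for D619N. With variant and replicate number as the block, 1 of the 127 miRNAs passed in place of 5. The interaction values above come from the fit without this block. Groups of 3 libraries are too small to look for single outlying libraries.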

How the results depend on the processing

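The 18 calls became 28 with a pseudocount of 10 RPM, 28 with that of 1 read in the shallowest library, 17 when scaled to mature reads, 0 on RPM as deposited, 15 with all 5 AGO2 groups in the fit (1 higher and 14 lower, and only 8 of the 18 shared) and 9 among abundant and intermediate miRNAs only, and 15 to 29 without 1 library (29 without D619N IP replicate 1). The 4 abundant calls became 0 on RPM as deposited and 1 to 4 without 1 library (1 without WT IP replicate 1 and 2 without D619N IP replicate 1). The 6 families became 12 and 14 with the larger pseudocounts and 5 to 9 without 1 library. The 1 strand ratio became 0 with 100 CPM, with the replicate block and among the 5 hairpins with 3 or more expected passenger reads, and 1 to 4 without 1 library. The 0 input calls became 1 with the replicate block and 0 to 5 without 1 library (5 without WT input replicate 3). The 5 interaction calls became 2 with either larger pseudocount, 1 on RPM as deposited, 1 with the replicate block and 3 to 7 without 1 library (3 without WT IP replicate 2, D619N IP replicate 3 or D619N input replicate 2). The 29 calls against the other variants became 19 to 31 without 1 library (19 without D619N IP replicate 3). The ratio of mature shares, 1.43, was 0.872 relative to input and 1.07 to 2.18 without 1 library (2.18 without WT IP replicate 1), and that of passenger shares 0.644, with 0.538 to 0.742 without 1 library. The replicate block left 18 calls, 17 of them the same, with 3 of the 4 abundant ones; the numbers were not taken as pairs. Counting names that share nearly all reads once, chosen after seeing the data, gave 17 calls, 3 of them abundant. No named call changed direction. Count models were not run, because with so few miRNAs it could not be shown that the read numbers are unadjusted counts. Other causes were not tested. Depth limits calls near the read limit, where D619N libraries would hold few reads at the WT-AGO2 share.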
